A study of Mus musculus with 43 samples.

Results

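EKLF binding was examined at 10 genes of its own family: Klf1, which encodes EKLF itself, and Klf2, Klf3, Klf6, Klf8, Klf9, Klf10, Klf13, Sp1 and Sp3. The genes were taken by name from a RefSeq gene table, and all 10 of 10 were found among 21521 protein-coding genes of the mouse. For each gene, every called EKLF region with its centre in the gene body or within 10 kb of either end was collected. Neither the names nor the window used a measured value, although the genes were proposed with earlier results of these data known.

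Krüppel-like factors (KLF) and Sp proteins share a set of C2H2 zinc fingers and recognise related CACCC and GC boxes in DNA. Members can therefore compete for, or pass on, the same sites, and they regulate each other's genes. In red cell precursors EKLF acts mainly as an activator of globin, heme and membrane genes. One of its textbook targets is Klf3, whose product represses genes by recruiting the co-repressor CtBP.

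The study compared E13.5 mouse fetal liver (E for embryonic day), labelled as primary erythroid cells, from 2 genotypes. The first is WT of the Nan strain. The second is Nan/+, which carries 1 copy of the Nan allele of Klf1, a change in a zinc finger of EKLF, beside 1 WT copy. EKLF was immunoprecipitated with the antibody 7B2a from formaldehyde-fixed cells, and the product of the Nan allele was not separated from that of the WT allele. Each genotype is represented by 1 list of regions called from 3 ChIP libraries of 72023512 to 103170594 tags, which the design text gives as biological replicates from littermate embryos, and from 2 input libraries of 81522594 to 115944854 tags.

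The lists give positions and widths, but no strength per region and no value per library. Nothing below therefore carries a test between genotypes or a replicate error, and a region missing from a list may lie just under its calling limit. The lists were also called with different settings, with the smallest possible region at 126 bp in WT and 176 bp in Nan/+, so widths and covered lengths of the 2 lists are given side by side and no difference between genotypes is read from them. They hold no expression values, so the erythroid label was not checked here.

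In WT, EKLF regions were called at 7 of the 10 genes, against 33.5% of all protein-coding genes. In Nan/+, 8 of the 10 had a region, against 37.5% of all. Both lists had regions at 6 genes, namely Klf1, Klf3, Klf10, Klf13, Sp1 and Sp3, against 23.5% of all genes. Klf6 had a region in WT alone, as did 10.1% of all genes. Klf2 and Klf8 had regions in Nan/+ alone, as did 14.1% of all genes. Klf9 had none in either list, like 52.4% of all genes. In all, the windows held 21 WT and 23 Nan/+ regions.

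**Figure D1:**
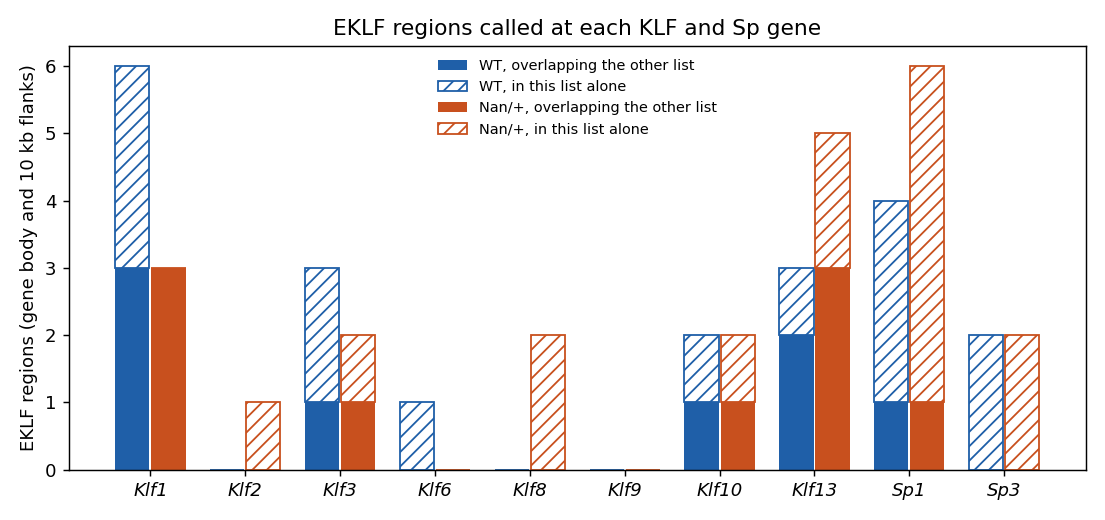
Number of EKLF regions per gene (vertical axis) at each of the 10 genes (horizontal axis), in WT (blue) and Nan/+ (orange). Solid bars are regions that overlap a region of the other list by at least 1 bp and hatched bars are those that do not; Klf1 has 6 WT and 3 Nan/+ regions, and Sp1 has 4 and 6.

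The number of regions differed widely among the 10 genes. Klf1 led in WT with 6 regions, a count that 0.846% of protein-coding genes reached, and Sp1 led in Nan/+ with 6, reached by 2.03%. The median over the 10 genes was 2 regions in either list, against 0 over all genes. Klf1 is a short gene of 3310 bp, so its 6 WT regions stood at 25.7 per 100 kb of window. Only 0.107% of genes were as dense or denser in WT, and 0.92% in Nan/+, where Klf1 had 12.9 per 100 kb. Klf8, the longest of the 10 genes at 173587 bp, had 0 WT and 2 Nan/+ regions, the latter at 1.03 per 100 kb.

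**Figure D2:**
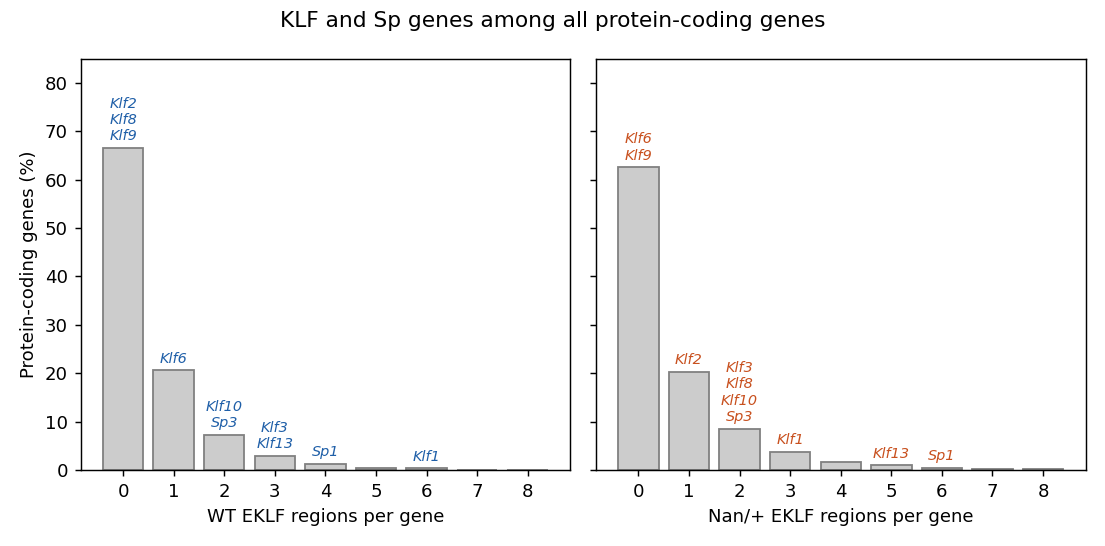
Share of all 21521 protein-coding genes (vertical axis, percent) by their number of EKLF regions (horizontal axis), in WT on the left and Nan/+ on the right. Each of the 10 genes is written above its bar; Klf1 stands at 6 in WT and 3 in Nan/+, while most genes have 0.

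Klf1 (chr8:84901982-84905291 of mm10, on the forward strand) was called over its start in WT and not in Nan/+. The WT region there, chr8:84901702-84902307, was 606 bp wide, and its centre lay 22 bp past the start. The nearest Nan/+ region began 493 bp beyond its end. A WT region of 329 bp lay 697 bp before the start, and another of 244 bp lay 2870 bp after it, near the far end of the gene. Neither had a Nan/+ counterpart within 1 kb.

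The gene body of Klf1 held 1 position called in both genotypes. It was the WT region chr8:84902476-84903608, 1133 bp wide, among the widest 3.0% of the WT list. The Nan/+ region, chr8:84902801-84903469, lay wholly inside it and covered 669 bp of it. Its centre lay 1153 bp past the start, just over the 1 kb used below to count a region as at a start.

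The remaining pair of shared positions in the Klf1 window sat at the starts of neighbouring genes. The WT region chr8:84893544-84894125 was centred 86 bp from the start of Gcdh, which encodes the mitochondrial enzyme glutaryl-CoA dehydrogenase. The WT region chr8:84908425-84908992 was centred 46 bp from the start of Dnase2a, which encodes the DNase II that digests the DNA of expelled red cell nuclei in macrophages. The Nan/+ regions at both places lay inside the WT ones, at 516 bp and 427 bp. Of the regions counted for Klf1, 4 WT and 2 Nan/+ regions were also counted for Gcdh, and 5 and 2 for Dnase2a, so the counts at these neighbours are not independent. Of the same regions, 4 and 2 also counted for Mast1, the next gene on that side, and 1 of each list for Syce2 on the other side.

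All Nan/+ sequence called at Klf1 was also called in WT. WT regions covered 3462 bp of the window and Nan/+ regions 1612 bp, and all 1612 bp were shared, which is 46.6% of the WT length. Among 1862 genes with at least 3 Nan/+ regions, 31, or 1.66%, had every one of them shared. An excess of 3 or more WT regions over Nan/+ regions was found at 1.18% of all genes. With the count of WT regions, of Nan/+ regions and of shared WT regions as the joint measure of likeness over the 2 lists, 1 gene outside the window matched Klf1, Rhoa, in a longer window of 51.8 kb against 23.3 kb.

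**Figure D3:**
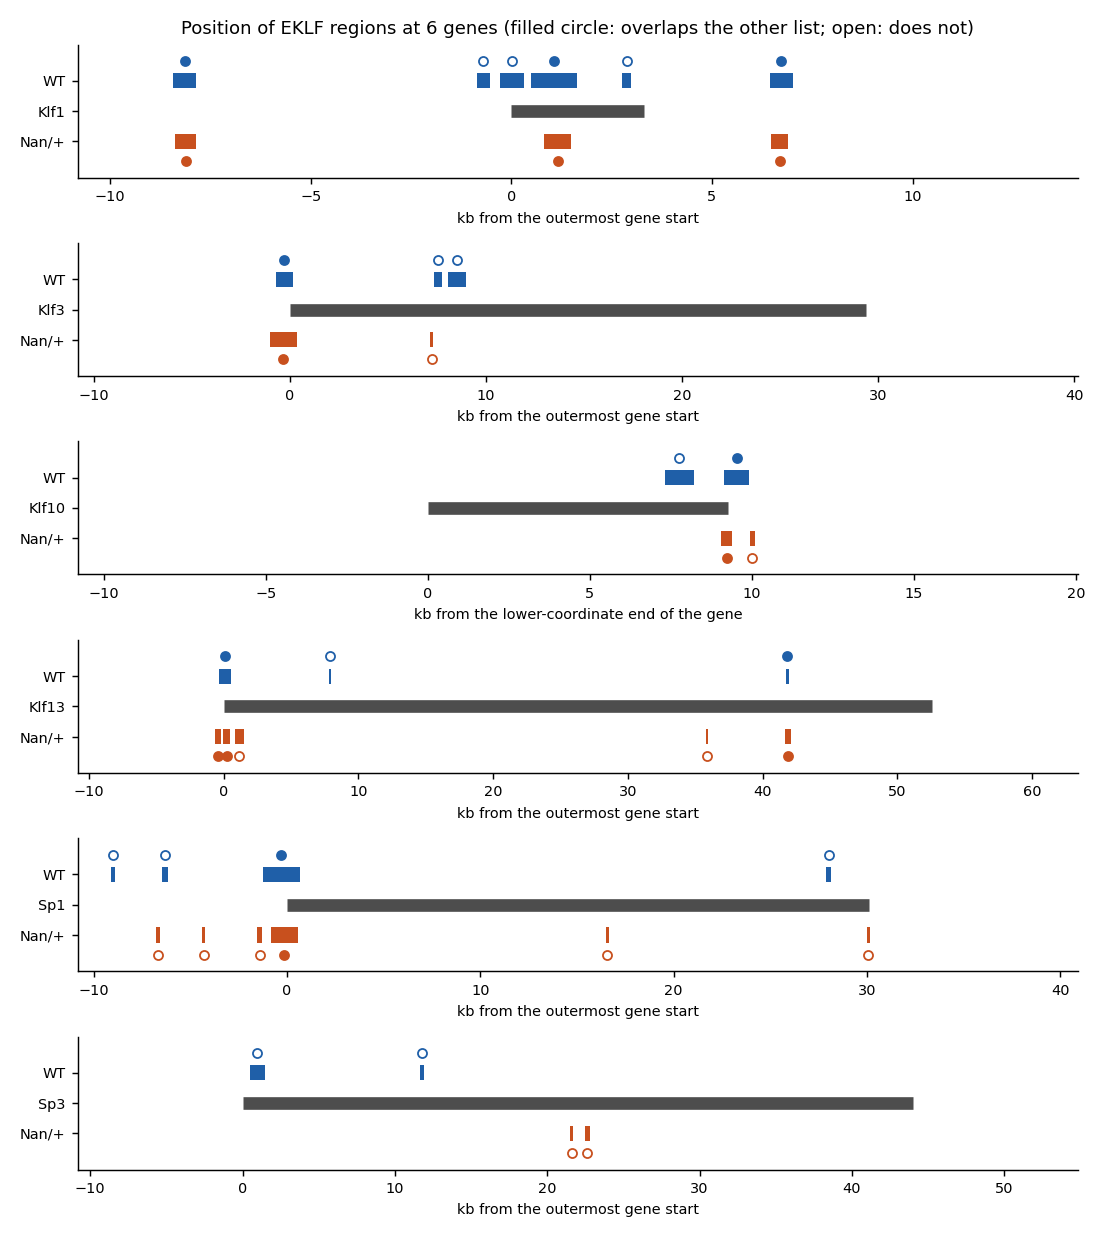
Position of EKLF regions at 6 genes, in kb along each gene's strand from its outermost start (for Klf10 from the end with the lower coordinates). Grey bars are gene bodies, blue and orange bars are WT and Nan/+ regions to scale, and a filled circle marks a region that overlaps the other list; at Klf1 the 3 Nan/+ regions are all filled, and at Sp3 every circle is open.

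The sequences before the starts of Klf1, Klf3, Klf13 and Sp1 are shown because EKLF was called over all 4 starts in WT, and over all but that of Klf1 in Nan/+. The inner start of Sp3 was also called over in WT alone. Its upstream sequence lies inside the Sp3 gene and is not shown, but its motifs were counted. Each runs over 250 bases, 5′ to 3′ towards the start, from RefSeq on GRCm38.p6, the assembly that mm10 renders. Capitals mark, on either strand, the KLF and Sp consensus CCNCNCCC, the CACCC core, the GATA factor core GATAA and the CCAAT box, which may overlap one another.
Klf1, chr8:84901732-84901981, forward strand: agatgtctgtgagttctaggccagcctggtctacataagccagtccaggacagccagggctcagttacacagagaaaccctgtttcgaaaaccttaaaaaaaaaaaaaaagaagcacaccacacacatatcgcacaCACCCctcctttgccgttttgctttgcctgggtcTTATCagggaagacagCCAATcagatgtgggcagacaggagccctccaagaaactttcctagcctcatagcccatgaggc
Klf3, chr5:64803271-64803520, forward strand: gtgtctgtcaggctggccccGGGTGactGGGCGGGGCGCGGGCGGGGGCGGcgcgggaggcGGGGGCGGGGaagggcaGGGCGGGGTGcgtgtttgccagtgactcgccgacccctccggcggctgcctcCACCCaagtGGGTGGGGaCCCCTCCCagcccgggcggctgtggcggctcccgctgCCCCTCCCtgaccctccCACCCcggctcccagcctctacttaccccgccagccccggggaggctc
Klf13, chr7:63938916-63939165, reverse strand: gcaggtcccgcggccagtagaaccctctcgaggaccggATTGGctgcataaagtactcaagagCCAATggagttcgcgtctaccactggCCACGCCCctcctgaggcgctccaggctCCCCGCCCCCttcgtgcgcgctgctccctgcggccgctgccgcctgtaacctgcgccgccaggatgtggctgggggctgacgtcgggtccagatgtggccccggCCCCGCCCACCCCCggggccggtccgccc
Sp1, chr15:102406066-102406315, forward strand: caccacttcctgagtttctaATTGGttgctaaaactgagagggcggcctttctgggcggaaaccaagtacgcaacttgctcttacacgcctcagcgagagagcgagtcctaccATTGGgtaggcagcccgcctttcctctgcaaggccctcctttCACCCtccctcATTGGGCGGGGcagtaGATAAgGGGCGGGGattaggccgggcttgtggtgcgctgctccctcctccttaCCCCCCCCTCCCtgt

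The Klf1 window differed from the other 3 shown and from that of the inner Sp3 start in its matches to CCNCNCCC. Over 250 bases before to 50 after the start it held 0 matches to CCNCNCCC, whereas Klf3 held 10, Klf13 5, Sp1 4 and the inner Sp3 start 6. The 2 starts spanned in WT alone, those of Klf1 and Sp3, thus differed from each other in this motif. It had CACCC at 114 bases before the start, the reverse of GATAA at 80 bases before it, and CCAAT at 64 bases before it. The GC content of the window was 51.3% at Klf1, against 76.7% at Klf3, 72.0% at Klf13 and 61.7% at Sp1, and the median over all such windows was 56.7%. A GC-rich window holds more matches to a GC-rich motif, and the part of base composition in these counts was not tested.

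These letters are common in promoters. The promoter table holds 21045 windows of that length for 17274 genes, of which 59.3% held CCNCNCCC, 62% CACCC, 25.7% GATAA and 42.7% CCAAT in at least 1 window. Of the 9 genes with an entry, which were all but Klf10, 7 held CCNCNCCC, all but Klf1 and Klf9. The related motif CCNNGCCC, which has 5 sites in common with it at Klf3, was held by 7 of 9 genes and by 51.3% of all genes with a window. The beta-globin type of CACC box, CCACACCC, was in 0 of the 9 genes and in 4.24% of all genes with a window. A match is a run of letters and does not show that a factor binds there.

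WT regions overlapped the promoter windows of 5 of the 9 genes: Klf1, Klf3, Klf13, Sp1 and the inner start of Sp3. The 9 genes have 11 such windows, of which 5 were overlapped in WT, 3 in Nan/+ and 3 in both. Among all promoter windows 19% were overlapped in WT, 11.8% in Nan/+ and 7.08% in both. At these 5 genes WT regions covered all 300 bases of the window. Nan/+ regions covered 300 bases at Klf3 and at Sp1, 147 bases at Klf13, and 0 at Klf1 and at Sp3. Taken by centres within 1 kb of an annotated start, WT regions lay at 6 of 9 genes, against 22.4% of all genes with a known start, and Nan/+ regions at 3 of 9, against 16.4%. The 3 genes with a start called in both genotypes were Klf3, Klf13 and Sp1 (9.97% of genes), those called in WT alone were Klf1, Klf6 and Sp3 (12.4%), and none was called in Nan/+ alone (6.44%). With centres within 5 kb the Nan/+ count was 6 of 9, because it then took in Klf1, Klf2 and Klf8. The regions at Klf2 and Klf8 had the minimum width of 176 bp. The share of all genes within 5 kb was not counted, so 16.4% is not the background of this count.

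Klf3 (chr5:64803521-64832901, forward strand) was called over its start in both genotypes. The WT region was 854 bp wide (chr5:64802821-64803674) and lay entirely inside the Nan/+ region, which was 1368 bp wide (chr5:64802511-64803878). Of all Nan/+ regions 0.27% were as wide. The start of Klf3 is overlapped by Gm38457, a predicted gene on the opposite strand, and all 3 WT and 2 Nan/+ regions of Klf3 were also counted for it.

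Further into Klf3 the lists parted. WT regions of 388 bp and 912 bp were centred 7555 bp and 8536 bp after the start, and a Nan/+ region of 176 bp, the smallest possible width, 7232 bp after it. A gap of 41 bp separated the latter from the nearer WT region, so these count as different positions although they adjoin. The wider WT region, chr5:64811602-64812513, had its nearest Nan/+ region 760 bp away. Over the whole window, 854 bp were called in both genotypes, 39.6% of the WT length and 55.3% of the Nan/+ length.

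Klf8 encodes another CtBP-recruiting repressor, whose gene is known to be repressed by KLF3. It lies on chromosome X (chrX:153225339-153398925, forward strand) and had no WT region in its window. Its 2 Nan/+ regions both had the minimum width of 176 bp. One lay 1103 bp before the second of its annotated starts (chrX:153358423-153358598), and the other lay in the lower flank, 9.38 kb from the gene's end and so close to the 10 kb limit. The nearest WT region was 898 kb from the gene.

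Klf9, Klf10 and Klf13 encode repressors that recruit the SIN3A co-repressor, and they differed from one another. Klf13 (chr7:63886351-63938915, reverse strand) had 3 WT and 5 Nan/+ regions, and 3.03% of genes had as many in Nan/+. The WT region over its start, chr7:63938377-63939236, was 860 bp wide. It overlapped 2 Nan/+ regions, chr7:63938424-63938928 over the start and chr7:63939082-63939563 before it, of 505 bp and 482 bp. Another Nan/+ region of 648 bp, chr7:63937423-63938070, followed within the gene, 306 bp from the WT region, and was not shared. Around the start of Klf13 the Nan/+ list thus had 3 regions where the WT list had 1.

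Klf13 also had a shared position deep in the gene. The WT region chr7:63896954-63897205, of 252 bp, lay 41835 bp after the start and wholly inside a Nan/+ region of 424 bp. A WT region of 192 bp 7889 bp after the start and a Nan/+ region of 176 bp 35868 bp after it had no counterpart. The length called in both genotypes was 912 bp, which is 69.9% of the WT length and 40.8% of the Nan/+ length.

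Klf10, a gene induced by TGF-beta signalling (chr15:38291464-38300711), had 2 regions in each list, all near its end with the higher coordinates. The WT region chr15:38300598-38301380, 783 bp wide, spanned that end and overlapped a Nan/+ region of 325 bp (chr15:38300521-38300845) over 248 bp. The second Nan/+ region, of 176 bp, began right beyond the WT region, with 9 bp between them. The second WT region, chr15:38298768-38299671, was the wider at 904 bp, lay inside the gene and had its nearest Nan/+ region 849 bp away.

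Klf9 (chr19:23141226-23168129) had no region in its window in either genotype. The nearest WT region lay 106 kb from the gene and the nearest Nan/+ region 57 kb. Its promoter window had CCAAT and CACCC but no CCNCNCCC.

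Klf2 and Klf6 each had 1 region in 1 genotype. Klf2, which is best known for roles in endothelial cells and in T cell quiescence (chr8:72319062-72321654), had a Nan/+ region of the minimum width centred 929 bp beyond its far end (chr8:72322496-72322671). The nearest WT region was 92 kb from the gene. Klf6 (chr13:5861489-5870393) had a WT region of 457 bp, chr13:5862173-5862629, centred 912 bp after its start. The nearest Nan/+ region lay 1940 kb from Klf6, the farthest of any of the 10 genes from a region of either list.

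Sp1 and Sp3 encode widely expressed activators that bind GC boxes, and they contrasted at their starts. Sp1 (chr15:102406316-102436404, forward strand) had the widest WT region of the 10 genes, chr15:102405067-102406985 of 1919 bp over the start. Only 0.272% of WT regions were as wide. The Nan/+ region, chr15:102405493-102406879, was 1387 bp wide, lay inside it and was among the widest 0.251% of the Nan/+ list. The length called in both genotypes at Sp1 was therefore 1387 bp, 50.9% of the WT and 58.6% of the Nan/+ length.

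Away from its start Sp1 had 3 WT and 5 Nan/+ regions, and 0 of them were shared. Most regions of either list are not shared: 24.5% of all WT and 14.7% of all Nan/+ regions were. With so few regions, no difference at Sp1 is read from this. The WT regions measured 202, 319 and 285 bp. The Nan/+ regions measured 231 and 220 bp, with the other 3 at 176 bp. Some lay close together: 86 bp separated a WT from a Nan/+ region about the same distance before the start (centres at 6300 and 6661 bp), and 58 bp separated a Nan/+ region from the wide WT region. The same 3 counts were found at 4 other genes, with longer windows than the 50.1 kb of Sp1: Mmrn1, Dnajc11, Sun1 and Rcor1.

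Sp3 (chr2:72936430-72980446, reverse strand) had 2 regions in each list and shared none. Its WT region chr2:72978969-72979988, of 1020 bp, spanned the inner of its 2 annotated starts. The nearest Nan/+ region was 20041 bp away. The other WT region had 274 bp, and the Nan/+ regions, of 299 and 176 bp, lay 20441 to 21465 bp after the inner start. The promoter window of that start held 6 matches to CCNCNCCC and was covered in WT alone, whereas the window of the outer start held 0 and was covered in neither list.

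Shared positions were few enough at these genes that their share is imprecise. Of the 21 WT regions 8, or 38.1% (95% exact binomial interval 18.1 to 61.6), overlapped a Nan/+ region, against 24.5% of all 9181, a share within that interval. In Nan/+ 9 of 23 were shared in this sense, which is 39.1% (19.7 to 61.5), against 14.7% of all 15564. The intervals cover counting error only, and regions of 1 gene are not independent. Measured by length, 5013 bp were called in both, 38.3% of the WT and 54.1% of the Nan/+ length. The share of length was not computed over the whole lists, and the 24.5% and 14.7% above count regions. Among the 10 genes, Sp3 alone had regions in both lists but no shared one. Of all genes, 23.5% had regions in both lists and 13.3% had a shared WT region, so a gene like Sp3 is not rare.

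Shared Nan/+ regions at these genes were mostly wider than the others, and wider regions were shared more often over the whole list too. In WT 0 of the 21 regions had the minimum width, against 3.29% of the list. In Nan/+ it was held by 10 regions, at 7 genes, and 0 of them were shared, whereas 9 of the 13 wider ones were. Over the whole Nan/+ list 54.5% of regions had that width, of which 4.13% were shared, against 27.3% of the wider ones. At the 10 genes shared Nan/+ regions had a median of 505 bp and the others 176 bp. In WT the medians were 818.5 bp for the 8 shared regions and 329 bp for the 13 others. A wide region overlaps another more readily, and the part of this in the difference was not tested. The median was 568 bp over the 21 WT regions and 396 bp over all WT regions, and 231 bp over the 23 Nan/+ regions against 176 bp over all.

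**Figure D4:**
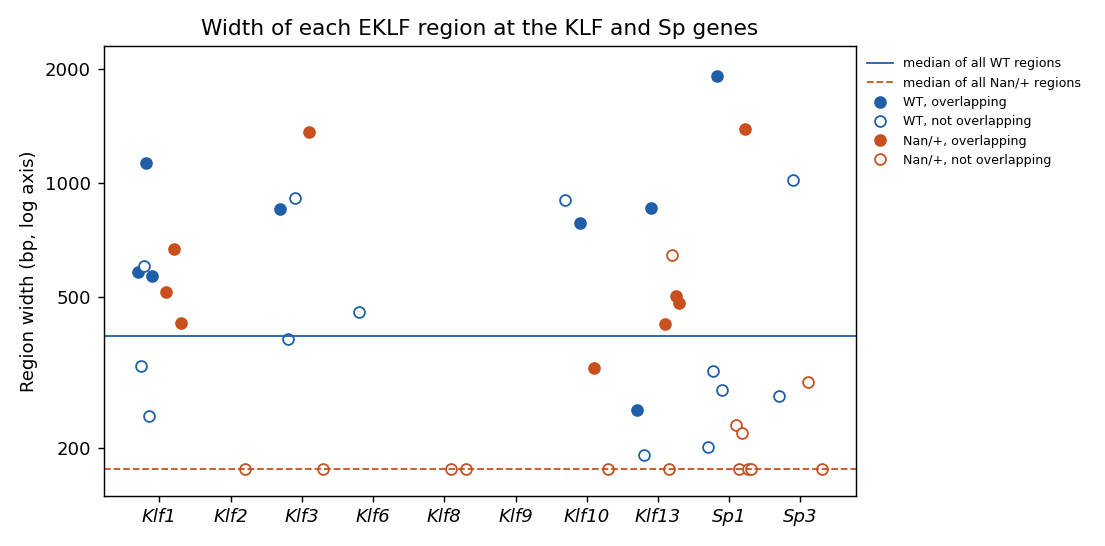
Width of each EKLF region in bp (vertical axis, logarithmic) at the 10 genes (horizontal axis), in WT (blue) and Nan/+ (orange), with filled circles for regions that overlap the other list. Lines are the medians of each whole list, at 396 bp and 176 bp; the Nan/+ regions on the lower line are all open circles.

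With regions of the minimum width left out, the Nan/+ windows held 13 regions in place of 23. Klf2 and Klf8 then had none, so that 0 genes were called in Nan/+ alone. Regions of that width made up 54.5% of the whole Nan/+ list. The share of all genes called in Nan/+ alone without them was not counted, so the 0 is not read as a trait of these genes. Sp1 went from 6 to 3 Nan/+ regions, fewer than its 4 in WT. Klf1 kept its 3 and Klf13 had 4.

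By regions anywhere in the gene window, the rest of the family was called at shares near those of all genes. Of the 16 other KLF and Sp genes, 7 had a WT region and 6 a Nan/+ region, against 33.5% and 37.5% of all genes. No region was found at 8 (Klf4, Klf5, Klf12, Klf14, Klf15, Sp5, Sp8 and Sp9), against 52.4% of all genes. A shared WT region was found at 4 of the 16, against 13.3% of all genes. Sp2, which encodes a further GC-box factor, had 8 WT and 7 Nan/+ regions, counts reached by 0.339% and 1.48% of all genes. Of these, 4 in each list were shared, where 24.5% of all WT and 14.7% of all Nan/+ regions were. Klf16 had 5 and 2, reached by 1.38% and 17.2% of all genes. Klf7, at 2, and Sp7, at 1, had regions in WT alone, and Klf17, at 1, in Nan/+ alone. Of 11 genes with an annotated start, 4 had a WT region within 1 kb of it and 3 a Nan/+ region, against 22.4% and 16.4% of all such genes. Both lists had a region within 1 kb of a start at 3 of the 11, against 9.97% of all such genes.

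Genes for cofactors that KLF and Sp proteins recruit were called at 9 of 10 in the WT list, against 33.5% of all genes, and at 8 in the Nan/+ list, against 37.5%. These genes ran from 12648 bp (Fhl3) to 137012 bp (Ctbp2). A longer gene has a longer window to hold a region, and the part of length in these counts was not tested. At 6 of the 10 a WT region lay within 1 kb of a start, against 22.4% of all genes with a known start. A Nan/+ region did so at 1 of the 10, Sin3a, against 16.4%. Crebbp, which encodes the acetyltransferase CBP, had 1 WT and 5 Nan/+ regions, and Smarca4, the chromatin remodelling ATPase BRG1, had 3 and 6. Of all genes, 3.03% had 5 or more Nan/+ regions and 2.03% had 6 or more. At either gene 0 regions were shared, where 24.5% of all WT and 14.7% of all Nan/+ regions were. Kat2b, encoding the acetyltransferase PCAF, had 2 regions in WT alone, and Fhl3, encoding a partner of KLF3, had 1. Sin3b had 1 in Nan/+ alone. Ep300, encoding p300, was the 1 gene of the 10 with a shared region, near the 13.3% of all genes that had a shared WT region.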

How the data were processed

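The data are 2 region lists in BED form, 1 per genotype. Per the file headers, the authors called regions with HOMER on mm10, with ChIP against input libraries at a q of 0.01 and a fold of 4. HOMER's replicate step then applied DESeq2 with a log2 fold of 2 and an FDR of 0.01. The peak size and minimum distance were 125 and 250 bp for WT and 175 and 300 bp for Nan/+, per the file headers. The deposited score is 1 in every row and was not used. The submitters' processing notes also name Bowtie2 2.1, SAMtools 1.1, bcl2fastq 2.17 and deepTools 3.5.

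Positions are printed counted from 1. A region was shared if 1 bp or more of it lay in a region of the other list. Genes and promoter windows came from RefSeq tables of GRCm38.p6. Of 21900 protein-coding genes, 113 on alternate loci and 266 on Y or the mitochondrial chromosome were left out. Starts were known for 17274 genes. Counting was done in Python 3.11.15 with pandas 2.3.3 and SciPy 1.17.1, and was tested on simulated regions. No test between genotypes was run. The 95% intervals are Clopper-Pearson.

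The 10 genes and the 2 further lists were chosen with earlier results of these data known. Named genes were the 10, members of the other lists with a region in 1 list alone or at least 4 in a list, genes nearest a region at Klf1 and Sp1, and genes with the same counts as these. Sin3a, Ep300 and the genes with no region were named after their values were seen (also Gm38457), as were the 3 motifs of 5 letters. The planned protein comparison was not made, since no protein sequence was used here. The other assays of the series were left aside.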

Additional observations from a re-analysis of the deposited data

How the results depend on the processing

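All of these alternatives were among the planned ones. No paired analysis was possible because a single pooled list stands for each genotype, which also prevents leaving out replicates. Of 46 alternative values for the summary results, 40 stayed within 1.5 times for a count or within the exact binomial interval for a share. With Nan/+ regions above the minimum width alone, Nan/+ regions numbered 13, genes called in Nan/+ alone 0, and the shared part of Nan/+ regions was 69.2%, fewer regions entering by construction. With a gap of up to 1 kb allowed, 61.9% of WT regions (13 of 21, from 38.1%) and 60.9% of Nan/+ regions (14 of 23, from 39.1%) had a neighbour in the other list, so both shares depend on this choice. With centres within 5 kb of a start, 6 genes were called there in Nan/+, and the share of all genes at that distance was not counted. The exact CCACACCC was held by 0 of 9 genes in the promoter window. Of 80 counts for single genes, 67 stayed within 1.5 times, and the number of genes called in WT was 7 under each window tried. Region centres nearest the 10 kb limit lay 9.38 kb from Klf8 inside it and 16.7 kb from Klf13 outside it. Equal list lengths were not run, because only 7083 Nan/+ regions exceed the minimum width and the tied remainder cannot be ranked. The lists do not give the tags behind each single region.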
